A study of Mus musculus with 157 samples.

Results

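The MHC class II genes and the genes that load and switch on class II were followed here on ribosomes of mouse splenic B cells. The 10 genes, of 19600 in the deposited table, were taken by their names: the chains H2-Aa, H2-Ab1 and H2-Eb1, the invariant chain gene Cd74, the peptide exchange genes H2-DMa, H2-DMb1 and H2-DMb2, their inhibitor H2-Oa and H2-Ob, and the transactivator gene Ciita. Class II molecules are pairs of an alpha and a beta chain that show peptides to CD4 T cells. In the endoplasmic reticulum the pairs are held by the invariant chain, and in the endosome H2-DM releases the last piece of that chain so that another peptide can bind, a step that H2-O restrains in B cells. Ciita does not bind DNA itself and acts through factors on the X and Y boxes of class II promoters. C57BL/6 mice carry a defective H2-Ea gene, so their H2-Eb1 chain has no I-E partner, although its mRNA is made.

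B cells were purified from spleens of C57BL/6Babr mice and activated in all groups with LPS (lipopolysaccharide, 10 µg/ml), for 48 h in the LPS group. The LPS+ET cells then received etoposide, a topoisomerase II poison that breaks DNA, at 20 µM for 4 h. The LPS+ET+KU cells had 47 h of LPS, then 10 µM KU55933, an inhibitor of the DNA damage kinase ATM, for 1 h, and then the same etoposide dose. There was no group with KU55933 and without etoposide, and none without LPS. The paper's methods add etoposide after 48 h of LPS, while a legend of its flow cytometry places it in the last 4 h. If it was added after 48 h, cells with etoposide had 4 h more of culture than LPS cells. That time cannot be told apart from the drug. All cells were given cycloheximide before lysis, extracts were parted on sucrose gradients, and mRNA 3′ ends were sequenced from each of 13 fractions, with fractions 4 to 7 as monosomes, 8 to 10 as light polysomes and 11 to 16 as heavy polysomes.

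Each treatment had 4 gradients, 1 under each of the marks LUL15 to LUL18 in the column names. These marks are called pools here, a reading of the names, since the sources used here do not say what they stand for, and gradients are named by treatment and pool. The study's methods call them biological replicates. Whether they came from separate mice or cultures is not given in the sources used here, so p-values measure the spread between these gradients. In the tests of the whole profile they measure the spread between single libraries. Gradient totals ran from 6404957 to 21449781 counts and single libraries from 14724 to 4170688 (median 811932). Of the LPS+ET gradient of pool LUL16, 30.4% of counts were in heavy polysomes, against 60.5 to 68.2% in the other 3 LPS+ET gradients. Monosomes held 28.45 to 34.03% of counts in the LPS+ET+KU gradients, against 13.68 to 17.64% in LPS. In LPS+ET they held 10.85 to 12.98% outside pool LUL16, whose share lay within the LPS+ET+KU range. Levels from summed counts therefore weight monosome fractions more in LPS+ET+KU than in LPS. The summed level of the 8 B cell markers was 2289 to 2978 CPM (1e+06 times a gene's share of a gradient's counts) in LPS, 1652 to 2121 in LPS+ET and, with KU55933, 1868 to 2675 in LPS+ET+KU. Pool LUL16 stood apart in markers of other cells after etoposide. The sum of the T cell list (5 of 8 in the table) was at 295 CPM in its LPS+ET gradient and 374 in its LPS+ET+KU gradient, against 82.8 to 159 in the other 10 gradients. This sum was nearly all Lck, at means of 148.5, 167 and 170.3 CPM in LPS, LPS+ET and LPS+ET+KU, while the defining markers Cd3e, Cd3d, Cd3g and Cd8a were at means of 0.0408 to 1.13. Summed dendritic cell markers (6 of 8 in the table), from cells that also express class II, were at 30.6 and 34.6 CPM in those LUL16 gradients, against 13.0 to 22.3. The largest part of this sum was Flt3, at means of 9.36, 10.4 and 11.3 CPM in LPS, LPS+ET and LPS+ET+KU. In the same order, Zbtb46 was at means of 1.61, 3.76 and 9.55 CPM and Batf3 at 5.58, 4.13 and 1.84. Itgax, Siglech and Xcr1 were at means of 0.101 to 0.489. Macrophage and monocyte markers (7 of 7) were lowest in the LPS+ET and LPS+ET+KU gradients of pool LUL16, at 19.7 and 23.9 CPM, against 26.3 to 113 elsewhere. Plasma cell markers (6 of 6) summed to 2453 to 2950.0 CPM in LPS, to 2697 to 5279 in LPS+ET and, with KU55933, to 2347 to 4053 in LPS+ET+KU, NK cell markers (2 of 4 in the table) to at most 1.77 and erythroid markers (2 of 6) to at most 0.449. The part of these cells in the results was not tested, and values without this pool are given beside the results that rest on it.

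Of the 10 genes, 8 lie within 224 kb on chromosome 17 (GRCm38, 34092339 to 34316198, in the order H2-Oa, H2-DMa, H2-DMb2, H2-DMb1, H2-Ob, H2-Ab1, H2-Aa and H2-Eb1), and Ciita is on chromosome 16 (10488177 to 10527563). The X and Y boxes that join these genes under Ciita can be read in RefSeq promoter windows (GRCm38.p6, from 250 bases before to 50 after a gene's start), which were matched for 7 genes and not for H2-Ab1, Cd74 and Ciita. The Y box core TGATTGG was found in 6 of the 7, and in 7.82% of all 32851 windows searched on both strands. The letters AACNNATGATG, the X box core as 4 of these promoters spell it, were found in 0.137% of windows, and both sequences together in 9 windows, 4 of them of H2-Eb1, H2-DMb1, H2-DMb2 and H2-Ob. These letters were chosen after the promoters had been read. The windows matched for H2-DMa begin from RefSeq starts 12349 and 9663 bases upstream of the locus that the deposited table uses, and neither core was found there. The 6 stretches of 60 bases are shown on the sense strand because they hold the part that the class II genes share, with the cores in capitals.
H2-Eb1, chr17:34305761-34305820, plus strand: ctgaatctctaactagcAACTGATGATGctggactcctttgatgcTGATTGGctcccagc
H2-DMb1, chr17:34153083-34153142, plus strand: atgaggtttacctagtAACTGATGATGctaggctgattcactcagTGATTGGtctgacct
H2-DMb2, chr17:34145112-34145171, plus strand: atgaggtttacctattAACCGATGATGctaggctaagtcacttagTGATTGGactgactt
H2-Ob, chr17:34238801-34238860, plus strand: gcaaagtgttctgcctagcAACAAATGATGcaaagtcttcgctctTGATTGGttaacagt
H2-Aa, chr17:34287859-34287918, minus strand: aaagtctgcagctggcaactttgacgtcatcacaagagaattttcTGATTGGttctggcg
H2-Oa, chr17:34092289-34092348, plus strand: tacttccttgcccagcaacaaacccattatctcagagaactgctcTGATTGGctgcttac
The cores were 15 to 18 bases apart in the 4 promoters that held both. The Y box core began 45 to 92 bases before the RefSeq start. The stretches of H2-DMb1 and H2-DMb2 were 88.3% identical, and their whole windows 62.3%.

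The counted 3′ ends sat in the annotated 3′ UTR (GENCODE M21) of every member. H2-Aa, H2-Ab1, H2-Eb1, Cd74, H2-DMa, H2-DMb1, H2-DMb2 and H2-Oa each had 1 site, at most 8 bases from an annotated transcript end. H2-Ob had 2 sites, with 95.2% of its site counts at the first, 1351 bases before the annotated end, and Ciita had 5, with 62.5% at the first. H2-DMb1 and H2-DMb2 are neighbouring paralogs, and their last 50 transcript bases differed at 15 of 54 aligned positions (72.2% identity). How reads that match both were counted is not given in the sources used here, so the split between this pair is uncertain.

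The chain mRNAs and Cd74 were among the most abundant of all mRNAs, and the loading genes and Ciita were far below them. A read marks the end of 1 mRNA, so CPM here has no length term. Over the 12 gradients, the mean level was 16375 CPM for H2-Eb1 (rank 3 of 19600 genes), 8397 for H2-Ab1 (rank 10), 6530.3 for Cd74 (rank 11) and 3030.4 for H2-Aa (rank 25). The mean level was 184 CPM for H2-DMb2, 178 for H2-DMa, 176 for H2-Ob, 66.6 for H2-Oa, 50.6 for H2-DMb1 and 42.7 for Ciita. Together the 10 genes took 3.59% ± 0.491 (SD, n = 4) of counts in LPS, 3.30% ± 0.293 in LPS+ET and, with KU55933, 3.62% ± 1.24 in LPS+ET+KU. In LPS, H2-Eb1, H2-Ab1, Cd74 and H2-Aa followed each other with no overlap between neighbours (lowest H2-Eb1 13996, H2-Ab1 7576 to 8771, Cd74 4563 to 6854, highest H2-Aa 3511 CPM). Cd74 lies apart from the others on chromosome 18 (GRCm38, 60803847 to 60812645). The ranges of H2-DMb2, H2-DMa and H2-Ob overlapped, as did those of H2-Oa, Ciita and H2-DMb1.

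**Figure D1:**
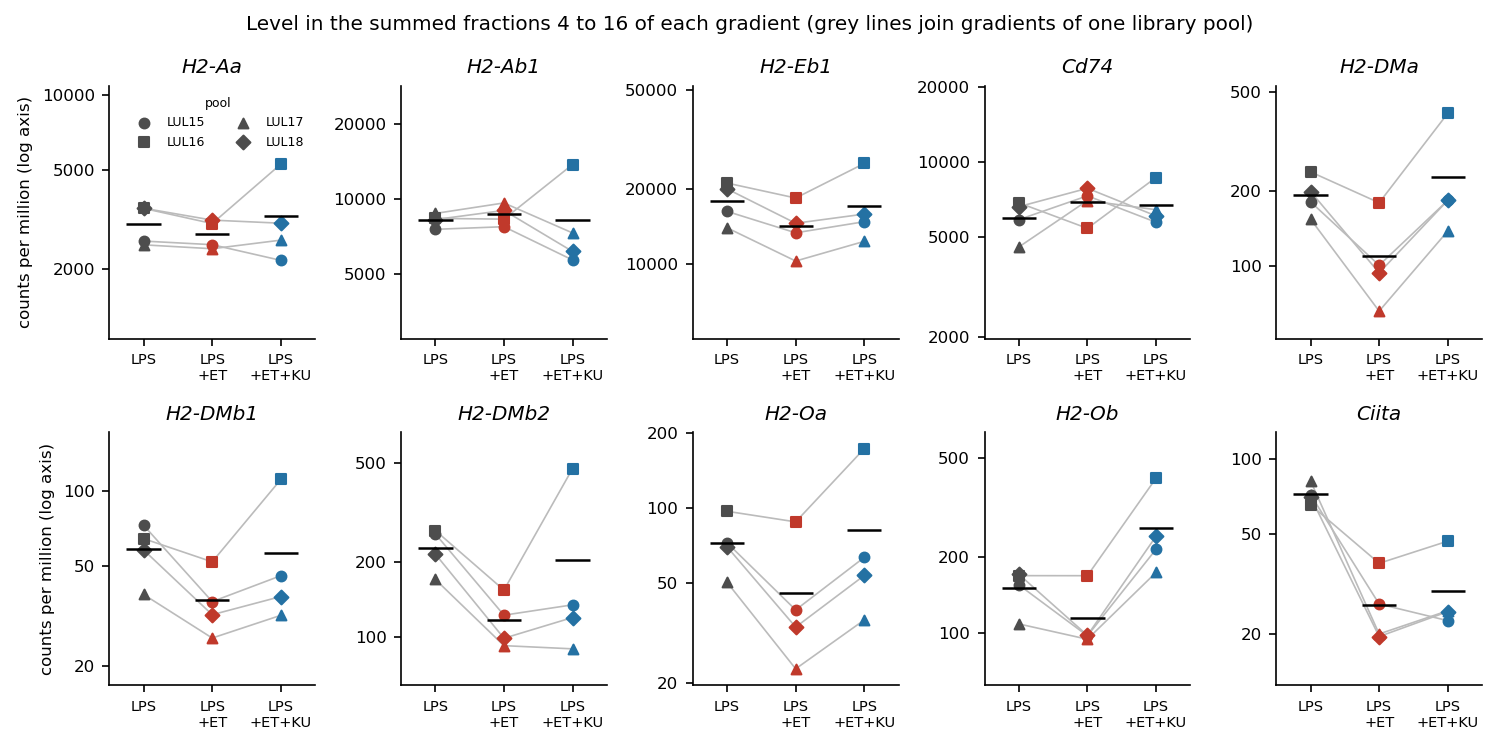
Level of each gene in CPM (log axis) in the 12 gradients, by treatment. Marker shapes are pools (the marks LUL15 to LUL18), grey lines join gradients of the same pool and black bars are means of 4. Ciita sits lower in all 8 gradients with etoposide. H2-Aa, H2-Eb1, the H2-DM genes and H2-Oa lie lower in LPS+ET than in LPS within each pool. The square of pool LUL16 in LPS+ET+KU lies above the other 3 in every panel.

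The first comparison asks which of these mRNAs changed on ribosomes 4 h after DNA damage. Ciita fell about 3-fold. The chains and Cd74 did not pass the test, although H2-Aa and H2-Eb1 lay lower in every pool. The H2-DM genes and H2-Oa also lay lower in every pool. They passed the test only where pools were paired or pool LUL16 was left out, apart from H2-DMb2. H2-DMb2 also passed when only these 8 gradients were fitted. Ciita stood at 71.9, 65.5, 81.7 and 70.5 CPM in LPS (pool LUL15, then LUL16, LUL17 and LUL18), and at 26.3, 38.3, 19.9 and 19.5 in LPS+ET. The groups did not overlap. The log2 difference was -1.60 ± 0.27 (SE, 3.02-fold, adjusted p 9.0e-04). It was the only member called at an adjusted p under 0.01, of 12.7% of the 12755 genes tested (4.81% called lower), and it was called under every alternative run, at -1.87 with the pool LUL16 gradient of LPS+ET left out. Counts behind it were 753 to 1274 per LPS gradient and 228 to 301 per LPS+ET gradient. In bulk samples, fewer cells of a type and less RNA per cell cannot be told apart.

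H2-DMa and H2-DMb2, whose products pair as H2-DM, lay lower in each pool. H2-DMa stood at 181, 239, 155 and 199 CPM in LPS (pools in the same order) and at 101, 180, 66.3 and 94.3 in LPS+ET, so the ranges overlapped through pool LUL16. H2-DMb2 stood at 260, 268, 171 and 216 CPM in LPS and at 123, 155, 92.7 and 99.3 in LPS+ET, with no overlap. In all, 2 of 10 members did not overlap, H2-DMb2 and Ciita, against 26.4% of genes tested. H2-DMb1 stood at 73.0, 64.6, 38.6 and 58.2 CPM against 36.2, 52.1, 25.8 and 32. For the inhibitor, H2-Oa stood at 72.6, 97.1, 50.4 and 69.9 CPM in LPS and 39.1, 88.1, 22.7 and 33.4 in LPS+ET, and H2-Ob at 155, 169, 108 and 171 against 97.1, 169, 94.1 and 97.5. H2-DMa, H2-DMb1, H2-DMb2 and H2-Oa were lower in LPS+ET in each of the 4 pools, as were H2-Aa, H2-Eb1 and Ciita. H2-Ob was lower in 3 and level in pool LUL16. The share of all genes that were lower in every pool is not given here.

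Without pairing, none of these 5 passed: the log2 differences were -0.93 ± 0.36 for H2-DMa (adjusted p 0.0814), -1.08 ± 0.43 for H2-DMb2 (0.0923), -0.80 ± 0.37 for H2-DMb1 (0.142), -0.78 ± 0.49 for H2-Oa (0.285) and -0.51 ± 0.29 for H2-Ob (0.244). Gradients of the same pool deviated together, so the pool was also fitted as a block, which raised the share of genes called to 26.7% (12.8% lower) and the members called from 1 to 5, all lower. With the block, the difference was -1.01 ± 0.15 for H2-DMa (adjusted p 1.3e-04), -1.09 ± 0.25 for H2-DMb2 (0.00293), -0.83 ± 0.19 for H2-DMb1 (0.00399) and -0.95 ± 0.18 for H2-Oa (8.4e-04), while H2-Ob stood at -0.54 ± 0.15 (0.0118). With pool LUL16 left out and no block, the same 5 members were called, H2-DMa at -1.15 (0.00174) and H2-Oa at -1.14 (0.00571) among them. Leaving out this pool was chosen after the data were seen, and the share of all genes called without it is not given here. Among the abundant genes, the difference was -0.45 ± 0.27 for H2-Eb1 (adjusted p 0.269), -0.24 ± 0.28 for H2-Aa (0.602), -0.04 ± 0.26 for H2-Ab1 (0.944) and 0.09 ± 0.21 for Cd74 (0.820). H2-Eb1 was lower in LPS+ET in each pool (16280, 21137, 13996 and 20033 CPM in LPS, 13368, 18418, 10306 and 14598 in LPS+ET), and with the block it had an adjusted p of 0.0345. With the block and without pool LUL16, H2-Eb1 (-0.50, 2.8e-04) and H2-Ob (-0.68, 4.3e-05) were also called lower. The median difference of the 10 members was -0.65, against 0.03 over all genes tested.

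**Figure D2:**
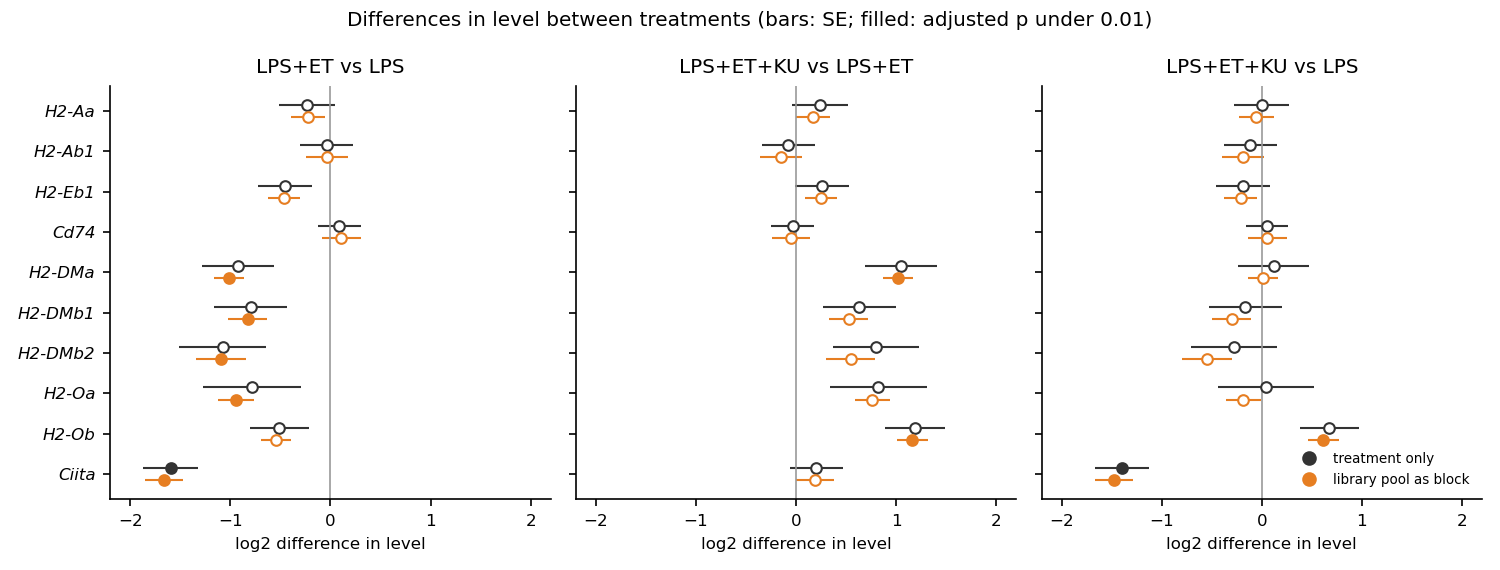
Log2 difference in level (horizontal axis, bars are SE) for each gene in the 3 comparisons, fitted with treatment only (dark) and with the pool as a block (orange). Filled points passed an adjusted p of 0.01. Ciita is the only dark filled point, at -1.60 and -1.39 in the panels against LPS, and H2-DMa, H2-DMb1, H2-DMb2 and H2-Oa fill only with the block in LPS+ET against LPS.

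The second comparison asks what ATM inhibition changed in etoposide-treated cells. H2-Ob and H2-DMa lay higher with KU55933 in every pool and were called where pools were paired. H2-Eb1, H2-DMb1 and H2-Oa also lay higher in every pool and were not called from all pools. Ciita did not pass the test. The share of all genes that were higher in every pool is not given here. H2-Ob stood at 215, 414.5, 174 and 243 CPM in LPS+ET+KU, above every LPS+ET gradient and also above every LPS gradient. It was the 1 member of 10 that did not overlap, against 8.26% of genes. With equal weight per fraction, H2-Ob stood at 158.9 to 346.1 CPM in LPS+ET+KU, 84.6 to 215.9 in LPS+ET and 110.7 to 169.1 in LPS. These ranges overlapped, and within each pool LPS+ET+KU was still the highest. In summed counts the log2 difference of H2-Ob was 1.19 ± 0.30 (adjusted p 0.0541), and with the block 1.16 ± 0.15 (4.0e-04). H2-DMa stood at 184, 409.7, 139 and 184 CPM, with a difference of 1.05 ± 0.36 (0.157), and with the block 1.02 ± 0.15 (8.2e-04). Without the LPS+ET+KU gradient of pool LUL16 the differences were 0.88 for H2-Ob (0.0994) and 0.61 for H2-DMa (0.329), and without the whole pool 1.14 (0.0103) and 0.96 (0.0184). No member passed without the block, of 0.455% of genes (edgeR), while 2 members, H2-DMa and H2-Ob, had an unadjusted p under 0.05 and 1, H2-Ob, was called by DESeq2. With the block 6.36% of genes were called (2.77% higher), H2-DMa and H2-Ob among them, both higher.

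H2-Oa stood at 63.5, 173, 35.7 and 53.7 CPM in LPS+ET+KU, above the LPS+ET gradient of its pool in all 4, with a difference of 0.82 ± 0.49 (adjusted p 0.447, and 0.0115 with the block). It was 0.14 (0.888) without the LPS+ET+KU gradient of pool LUL16, and without the whole pool 0.69 (0.117, and 4.1e-05 with the block). The difference of H2-DMb1 was 0.63 ± 0.37 (0.436), and 0.071 without that gradient. For H2-DMb2 the difference of 0.80 ± 0.43 (0.394) also rested on pool LUL16, where it stood at 474 CPM against 135, 90.1 and 120 in the other 3 pools, and it was -0.032 with that gradient left out. Ciita stood at 22.5, 46.9, 24.7 and 24.5 CPM, with a difference of 0.20 ± 0.27 from LPS+ET (0.776), which was -0.10 without the LPS+ET+KU gradient of pool LUL16. The chains and Cd74 had differences between -0.08 and 0.26, none called. In the LPS+ET+KU gradient of pool LUL16 all 10 members had their highest value among the 4 LPS+ET+KU gradients, for instance 13761 CPM of H2-Ab1 against 5713 to 7329 in the others.

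Against LPS, etoposide with KU55933 left Ciita lower, and H2-Ob was called higher where pools were paired. Ciita had a log2 difference of -1.39 ± 0.27 (2.63-fold, adjusted p 0.00285) and no overlap, the only member called, of 10.7% of genes (4.42% lower). Leaving out single LPS+ET+KU gradients gave -1.25 (0.0108, without pool LUL15), -1.33 (0.0102, without LUL17), -1.33 (0.0123, without LUL18) and -1.71 (2.8e-04, without LUL16). H2-Ob had a difference of 0.67 ± 0.29 (0.115), and with the block 0.61 ± 0.15 (0.00553), where 28.1% of genes were called. In summed counts, 2 of 10 members did not overlap between these groups, Ciita lower and H2-Ob higher, against 26.3% of genes. H2-DMa differed by 0.12 ± 0.36 (0.842), H2-DMb1 by -0.16 ± 0.36 (0.779) and H2-DMb2 by -0.28 ± 0.43 (0.672). Without the LPS+ET+KU gradient of pool LUL16, H2-DMb2 was at -1.11 and called (0.00434), and H2-DMa was at -0.33, H2-DMb1 at -0.73 and H2-Ob at 0.36 (0.316), not called. Without pool LUL16 and with the block, H2-Oa (-0.46, 9.5e-04), of the opposite sign to its value from all pools, and H2-Ab1 (-0.46, 7.3e-04) were called lower than in LPS. The comparisons share their LPS+ET or LPS gradients, so they are not independent of each other.

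The ratio of partner mRNAs within a gradient was compared for 6 pairs in the 3 comparisons, by exact two-sided permutation tests over 4 against 4 gradients, whose smallest p is 0.0286. None of the 18 tests could therefore pass 0.01, and the lowest adjusted p was 0.343. Within pools, which this test leaves out, H2-Aa to H2-Ab1, H2-Eb1 to H2-Ab1, H2-DMb2 to H2-DMb1 and H2-Oa to H2-Ob were each lower in LPS+ET than in LPS in all 4. H2-Eb1 to H2-Ab1 was 2.17 ± 0.414 in LPS and 1.66 ± 0.470 in LPS+ET (SD, n = 4, exact permutation p 0.200). H2-DMb2 to H2-DMb1 was 3.96 ± 0.398 in LPS and 3.26 ± 0.282 in LPS+ET (exact permutation p 0.0571). H2-Oa to H2-Ob was 0.479 ± 0.0692 in LPS and 0.377 ± 0.117 after etoposide (LPS+ET), and 0.285 ± 0.0965 where KU55933 was added (LPS+ET+KU). The last was lower than in LPS within each pool, and the ranges overlapped through pool LUL16 (exact permutation p 0.0571).

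Along the gradient the members did not travel together, although the coding lengths of all but Ciita lie between 750 and 909 bases (Ciita 3465). For each gradient, every fraction was scaled to CPM, and the share of a gene's scaled total that lay in heavy polysomes was taken. Libraries were made from RNA at identical concentrations, so these shares compare an mRNA with the others of each fraction. They do not give the amount of the mRNA in a fraction. In LPS this heavy share was highest for H2-Ab1, at 71.3% ± 1.35 (SD, n = 4), then 66.9% ± 5.49 for H2-DMb2, 66.3% ± 2.21 for Cd74 and 64.4% ± 5.02 for Ciita. It was 59.1% ± 1.75 for H2-Eb1, 57.0% ± 4.84 for H2-DMa and 55.8% ± 1.09 for H2-Aa, against a median of 55.2% over the 8000 genes with a mean of at least 100 counts per gradient. It was lowest for H2-Oa (47.8% ± 1.33), H2-Ob (40.6% ± 1.26) and H2-DMb1 (37.5% ± 4.00). Among those genes H2-Ab1 was at the 85.7th percentile and H2-DMb1 at the 18.8th. The gradients of H2-Ab1 (69.5 to 72.4%) overlapped those of H2-DMb2 (60.9 to 73.4%) and lay above the highest of Cd74 (67.9%). The lowest H2-Oa gradient (46.2%) was above the highest of H2-Ob (42.5%) and of H2-DMb1 (42.6%).

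Peaks of the scaled total, which are likewise relative to the other mRNAs of a fraction, lay in different fractions. In LPS, H2-Ab1 peaked in fraction 13 with 22.3% of its scaled total and H2-Eb1 in the same fraction with 15.3%. H2-Aa (13.8%), Cd74 (18.4%), H2-DMa (16.2%), H2-DMb2 (18.2%) and H2-Oa (14.1%) peaked in fraction 12. H2-DMb1 (10.9%) and H2-Ob (11.0%) were spread out, with the largest share in fraction 6, a monosome fraction. Ciita, which has the longest coding sequence, peaked in the last fraction, 16, with 16.2%. The low genes had few counts in single libraries: Ciita was at 0 counts in 1 of 52 LPS libraries and 3 of 52 LPS+ET libraries, and H2-DMb1 in 2 of 52 in each.

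**Figure D3:**
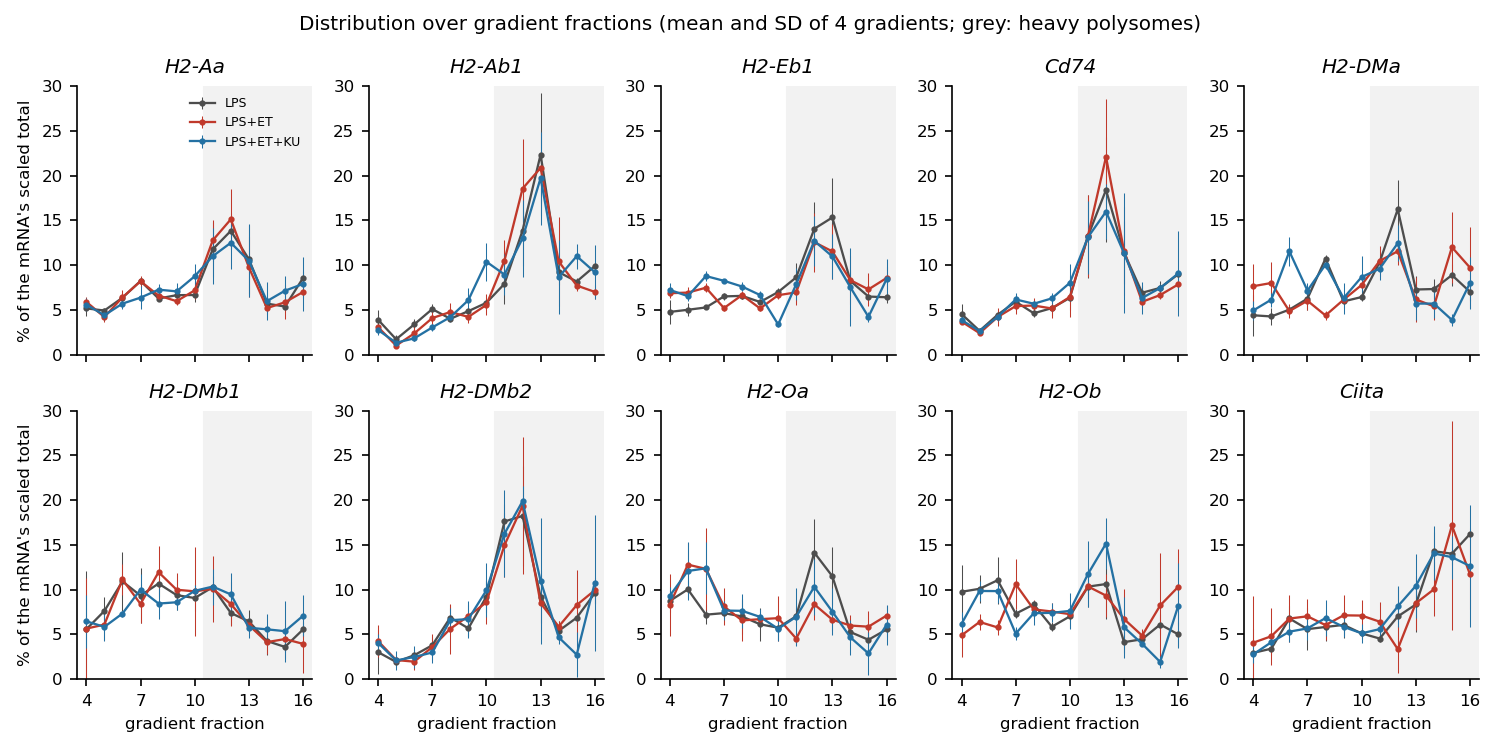
Share of each mRNA's scaled total in fractions 4 to 16 (percent, mean and SD of 4 gradients) for the 3 treatments, with heavy polysomes shaded. H2-Ab1 peaks in fraction 13 at 22.3% in LPS, H2-DMb2 in fraction 12, H2-DMb1 is flat with 10.9% in fraction 6, and Ciita rises towards fraction 16.

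Heavy polysome counts were also tested against monosome counts within gradients, where a value of 0 is the typical mRNA of the gradient. In LPS the order differed in part from that of the heavy share, with H2-DMb2 above H2-Ab1 and Ciita below H2-Eb1. In LPS, H2-DMb2 was at a log2 ratio of 1.65 ± 0.20 (adjusted p 3.5e-08), H2-Ab1 at 1.39 ± 0.14 (1.6e-09) and Cd74 at 0.95 ± 0.17 (2.5e-05). H2-DMb1 was at -1.03 ± 0.18 (1.8e-05) and H2-Ob at -0.92 ± 0.16 (1.6e-05). Thus 5 of 10 members were called, 3 towards heavy polysomes and 2 towards monosomes, against 46.1% of the 11463 genes tested (25.1% towards heavy and 21% towards monosomes), a share near the background. In LPS+ET the 5 called were H2-Ab1 (2.41 ± 0.14), H2-DMb2 (1.64 ± 0.21), Cd74 (1.25 ± 0.17), H2-DMb1 (-0.75 ± 0.20) and H2-Oa (-1.41 ± 0.21), against 46.1% of genes (26.8% and 19.2%). In LPS+ET+KU they were H2-Ab1 (1.91 ± 0.14), H2-DMb2 (1.86 ± 0.20), Cd74 (0.95 ± 0.17), H2-DMa (-0.46 ± 0.15) and H2-Oa (-1.17 ± 0.20), against 50.7% (28.7% and 22%). H2-Ab1, Cd74 and H2-DMb2 were thus called towards heavy polysomes in all 3 treatments, and each was also called with pool LUL16 left out. The call of H2-DMb1 in LPS+ET was lost without pool LUL18, and that of H2-DMa in LPS+ET+KU without LUL15, LUL17 or LUL18. The paralogs H2-DMb1 and H2-DMb2 lay on opposite sides of 0 in all 3. Ciita was at 0.16 ± 0.17 in LPS and not called, and was called towards heavy polysomes in the scaled heavy share (0.56, limma, adjusted p 0.00946). H2-Aa stood at 0.15, 0.31 and 0.32 in LPS, LPS+ET and LPS+ET+KU, H2-Eb1 at 0.42, -0.0048 and -0.35, and edgeR with TMM called neither. In LPS+ET+KU, H2-Eb1 was called towards monosomes by DESeq2 (-0.48, adjusted p 5.1e-04), with RLE size factors (-0.48, 0.00680) and without pool LUL16 (-0.52, 0.00229). There DESeq2 also called H2-DMb1 (-0.57, 0.00735) and H2-Ob (-0.46, 0.00114), as did edgeR without pool LUL16 (-0.81, 1.2e-05, and -0.45, 0.00338). DESeq2 called H2-Ob in LPS+ET (-0.51, 0.00110), and H2-Oa was called in LPS without pool LUL16 (-0.64, 5.1e-04, edgeR). All were towards monosomes. Shares of all genes called in these alternatives are not given here.

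**Figure D4:**
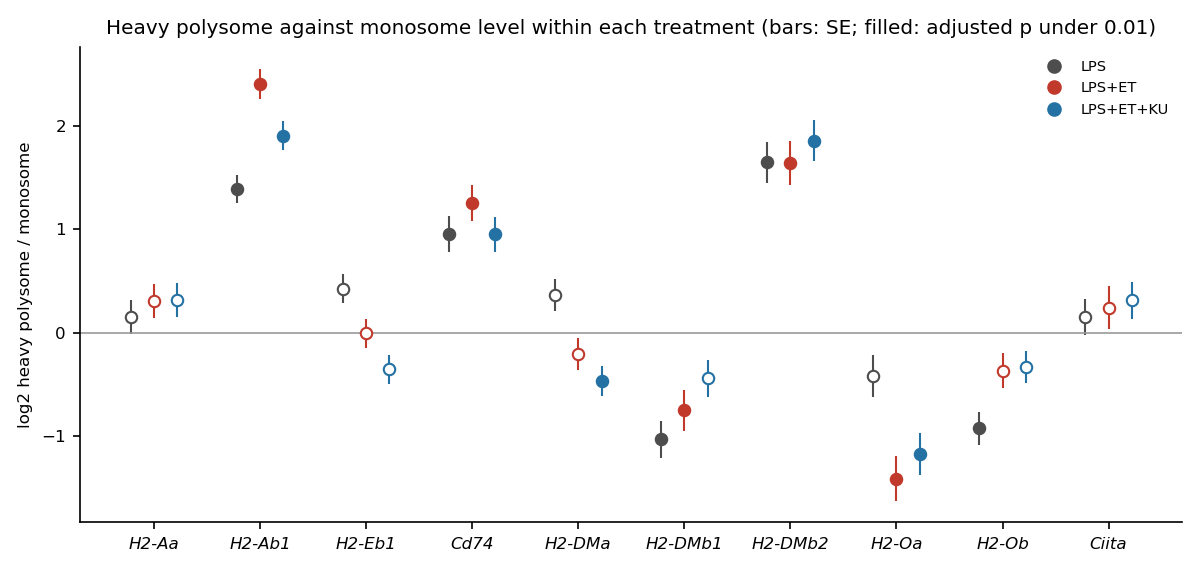
Log2 ratio of heavy polysome to monosome level (vertical axis, bars are SE) for each gene within LPS, LPS+ET and LPS+ET+KU; 0 is the typical mRNA and filled points passed an adjusted p of 0.01. H2-Ab1, Cd74 and H2-DMb2 are filled above 0 in all treatments, and H2-DMb1 lies below 0 beside H2-DMb2.

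The change of that ratio asks whether a treatment moved an mRNA along the gradient relative to the typical mRNA. The paper reports that etoposide lowered polysome assembly in general, and a shift shared by most mRNAs is scaled away here. By this ratio, H2-Ab1, the gene of the I-A beta chain, lay further towards heavy polysomes with etoposide, while its summed level stayed within the spread. In monosomes it stood at 2774, 3393, 3039.7 and 2908 CPM in LPS and at 1365, 2816, 1445 and 1562 in LPS+ET, where only pool LUL16 overlapped the LPS values. In heavy polysomes it stood at 10909.5, 12169.7, 12419 and 11194 CPM in LPS and at 11239, 16383, 12881.5 and 12429 in LPS+ET. The heavy to monosome ratio rose by 1.02 ± 0.19 on the log2 scale (adjusted p 0.00195), the only member called, of 2.51% of genes (1.14% higher). It was 0.99 with an adjusted p of 0.0104 without the LPS gradient of pool LUL16. In the scaled heavy share, H2-Ab1 differed by less, 0.28 on the log2 odds scale (limma, adjusted p 0.487), where it stood at 71.3, 69.5, 72.4 and 72.2% in LPS and 77.0, 68.0, 77.5 and 77.5% in LPS+ET.

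H2-Oa had a ratio change of -0.99 ± 0.29 with etoposide (adjusted p 0.0376), and was called with the pool LUL16 gradient of LPS+ET left out (-1.23, 0.00548). Its heavy share was 46.2 to 49.3% in LPS and 31.9 to 41.6% in LPS+ET, with no overlap. H2-DMa had a change of -0.57 ± 0.22 (0.103) and H2-Eb1 of -0.43 ± 0.20 (0.191). H2-Ob went the other way, with a change of 0.56 ± 0.23 (0.140), and its heavy share was 39.7 to 42.5% in LPS and 46.3 to 52.6% in LPS+ET, with no overlap. Between LPS+ET+KU and LPS+ET no member was called for the ratio (edgeR, 0.0262% of genes, and none by limma on the heavy share). At an unadjusted p under 0.05 there was 1 member, H2-Ab1, at -0.50 ± 0.19 (adjusted p 0.330). In simulated data the ratio test recovered 5% of changes of 1 on the log2 scale (LPS+ET against LPS), so such changes can be missed. Against LPS, etoposide with KU55933 had H2-DMa at -0.83 ± 0.21 (0.0155), H2-Eb1 at -0.78 ± 0.20 (0.0159) and H2-Oa at -0.75 ± 0.28 (0.113), none past 0.01, of 2.34% of genes (edgeR, and none by limma on the heavy share), while 6 members had an unadjusted p under 0.05. All 3 were called with pool LUL16 left out, at -0.91 (8.4e-04), -0.79 (0.00898) and -0.98 (0.00148). The share of all genes called in that setting is not given here. The heavy share of H2-Eb1 was 57.4 to 61.5% in LPS, 53.9 to 57.1% in LPS+ET and, with KU55933, 49.2 to 52.7% in LPS+ET+KU, with no overlap between any 2 treatments. That of H2-DMa was 51.6 to 62.4% in LPS, 48.2 to 63.7% in LPS+ET and, with KU55933, 43.2 to 47.0% in LPS+ET+KU, the last below all the others. For the heavy share, the part of all genes without overlap between treatments is not given here. Limma on the heavy share called no member in any comparison.

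Level differences were also fitted within each class of fractions. Ciita was lower in LPS+ET by -1.46 in monosomes (adjusted p 0.00270), -1.36 in light polysomes (0.00203) and -1.55 in heavy polysomes (0.00713), and was the only member called in each, of 9.52%, 10.6% and 9.69% of genes. Leaving out single gradients took the heavy polysome call away in 7 of 8 cases (it was kept with pool LUL16 left out of LPS+ET), and the monosome call with pool LUL15 or LUL17 left out of LPS+ET. Of the H2-DM and H2-O genes none was called without the block. In monosomes and heavy polysomes H2-Oa was at 0.020 and -1.15 and H2-DMa at -0.20 and -0.96, while H2-DMb2 was at -0.93 and -1.15, H2-DMb1 at -0.85 and -0.75 and H2-Ob at -0.81 and -0.49. The change of the ratio between the classes was called for none of these 5. With the block, H2-DMa, H2-DMb2, H2-Oa and Ciita were called in heavy polysomes (20.6% of genes), H2-Ab1, H2-DMb1, H2-DMb2, H2-Ob and Ciita in monosomes (24.6%) and H2-DMa, H2-DMb1, H2-DMb2 and Ciita in light polysomes (25%), all lower. Between LPS+ET+KU and LPS+ET no member was called in any class without the block (edgeR), where 0.213%, 0.292% and 0.572% of genes were. At an unadjusted p under 0.05 there were 2, 3 and 3 members in monosomes, light and heavy polysomes, H2-DMa and H2-Ob in each, and DESeq2 called H2-Ob higher in heavy polysomes. With the block, H2-DMa and H2-Ob were called higher in monosomes (1.02 and 1.13, 5.62% of genes called), H2-Ab1, H2-DMa and H2-Ob in light polysomes (0.80, 1.14 and 0.84, 5.35%) and H2-Ob in heavy polysomes (1.24, 3.27%). Against LPS, etoposide with KU55933 had Ciita called in monosomes (-1.40, 0.00378, 5.96% of genes) and light polysomes (-1.28, 0.00428, 7.13%). In heavy polysomes no member was called by edgeR (7.95% of genes), with Ciita at -1.35 (0.0165), 2 members at an unadjusted p under 0.05 and Ciita called by DESeq2. The monosome call was lost in 5 of 8 cases with a gradient left out and the light polysome call in 7 of 8, and the exceptions were the LPS gradients of pools LUL16 and LUL17 and the LPS+ET+KU gradient of LUL16 for monosomes, and the last alone for light polysomes. With the block, H2-Eb1 and H2-DMa were called higher in monosomes (0.51 and 0.77), H2-Ab1, H2-DMb1 and Ciita lower (-0.57, -0.59 and -1.43), where 23.2% of genes were called. In light polysomes the block called Ciita alone among the members (-1.33, 24.1%), and in heavy polysomes H2-Ob higher (0.77) and Ciita lower (-1.46, 21.4%).

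A test of the whole profile, which takes treatment and its interaction with fraction together, called 6 of 10 members in LPS+ET against LPS (H2-DMa, H2-DMb1, H2-DMb2, H2-Oa, H2-Ob and Ciita), against 31% of 10360 genes. The interaction alone called none of them (edgeR, 1.37% of genes, with 1 member, H2-Ob, at an unadjusted p under 0.05), and with a term for each gradient it called H2-DMa (adjusted p 2.8e-05) and H2-Ob (0.00524), against 5.72%. In LPS+ET+KU against LPS+ET, H2-DMa and H2-Ob were called (8.01% of genes). There the interaction alone called none (edgeR, 1.05% of genes, with 3 members at an unadjusted p under 0.05), and with a term for each gradient it called H2-Eb1, H2-DMa and H2-Ob (3.63%). In LPS+ET+KU against LPS, H2-Eb1, H2-DMa, H2-Ob and Ciita were called (32.7%), H2-Eb1 by the interaction alone (adjusted p 0.00269, 3.29%) and H2-Eb1, H2-DMa and H2-Ob with a term for each gradient (11%). The chains H2-Aa and H2-Ab1 and Cd74 were called in none of the 3. The test of treatment and interaction and the interaction alone treat the fractions of a gradient as separate libraries. Their p-values measure the spread between libraries, and those of treatment and interaction together can be too small.

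Other genes of the pathway were read by lists, beside 12.7% of all genes called in LPS+ET against LPS and 26.7% with the block. Among 8 processing enzymes of the invariant chain and antigens, 2 rose and none fell with etoposide (median 0.45): the cathepsin genes Ctsl, from 1.83 to 6.72 CPM (log2 difference 1.76 ± 0.31, adjusted p 0.00118), and Ctsd, from 29.2 to 84.2 (1.41 ± 0.19, 1.5e-04). Among 8 genes of class II ubiquitination and trafficking (median 0.0010), Cd83, which protects surface class II from the ligase of March1, fell from 244 to 109.6 CPM (-1.27 ± 0.15, 6.2e-05). It rose again with KU55933 to 218 CPM (1.00 ± 0.15, 0.00558). Among 7 factors that bind class II promoters (median 0.10), Rfx5, a subunit of the X box complex, fell from 36.7 to 17.7 CPM (-1.18 ± 0.24, 0.00278), and Nfyb, a subunit of the Y box factor, rose from 151 to 592 CPM (1.85 ± 0.27, 2.8e-04). Of the other 5, none passed without the block. With it, 3 of 8, 2 of 8 and 3 of 7 genes of these lists were called, the added ones being Ctsb (adjusted p 0.00912), Cd63 (3.8e-04) and Rfxank (0.00519), named after their values were seen.

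Among 8 tested regulators of Ciita (median -0.15), 1 fell and none rose: Irf8, from 534.5 to 147 CPM with etoposide (-1.99 ± 0.28, 2.5e-04), and it was at 182 CPM in LPS+ET+KU (-1.68 ± 0.28 from LPS, 0.00114). Irf4 did not pass with etoposide (0.11 ± 0.19, 0.727), and was lower with KU55933 than in LPS, at 104.1 against 191 CPM (-0.98 ± 0.19, 0.00317). With the block Ebf1 was also called (adjusted p 0.00244), a gene named after its values were seen. Of 5 neighbours in the class II region (median 0.31), none passed without the block, and 3 did with it. Psmb8 stood at 1392 CPM in LPS and 916 in LPS+ET (-0.72 ± 0.19, 0.0155) and Tap1 at 340 and 610.1 (0.73 ± 0.21, 0.0214). The 1 other class II gene tested, H2-Eb2, stood at 30.8 and 27.8 CPM (-0.25 ± 0.26, 0.540). Among 4 costimulatory genes (median -0.16), Cd80 rose from 3.17 to 16.0 CPM (2.23 ± 0.32, 2.6e-04), and Cd86 was at 77.8 CPM in LPS+ET+KU against 29.2 in LPS+ET (1.41 ± 0.22, 0.00637).

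Across the 12 gradients, the 5 genes whose log2 level followed the mean of H2-Aa, H2-Ab1 and H2-Eb1 most closely, of 7990 searched, were Ctnnbl1 (Pearson r 0.964), Clybl (0.963), Ube2h (0.938), 2210404O07Rik (0.906) and Pafah1b3 (0.899). The gradients share treatments and pools, and without the highest gradient, LPS+ET+KU of pool LUL16, r was 0.906, 0.904, 0.822, 0.801 and 0.783. For members outside the 3 chains, r was 0.804 for H2-DMb2, 0.775 for H2-DMb1, 0.763 for H2-Oa, 0.702 for H2-DMa, 0.568 for H2-Ob, 0.504 for Cd74 and 0.442 for Ciita. Without that gradient these were 0.600, 0.545, 0.556, 0.431, 0.0473, 0.146 and 0.563.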

How the data were processed

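PolyRibo 3′ end libraries were made from RNA of each gradient fraction at identical concentrations. According to the methods, the authors removed PCR duplicates by random barcode bases, trimmed A tracts, mapped reads to GRCm38/mm10 and summed them per gene, and the deposited table holds raw counts. The submitters' processing notes name TopHat2 (2.0.12) and HTSeq without a role, and whether they were used for these libraries is not given in the sources used here. Of 157 columns, 79 were matched to 1 sample and 78 to treatment, pool and fraction only.

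For each gradient the counts of all 13 fractions, or of a class of them, were added up and tested in edgeR (4.0.16; TMM, filterByExpr, quasi-likelihood, Benjamini-Hochberg over all genes, called at an adjusted p under 0.01). CPM used the summed totals, which weight deeply sequenced fractions more. All 12 same-pool pairs of gradients deviated together (r 0.358 to 0.896, against -0.673 to 0.406 between pools), so the pool, a mark in the column names (LUL15 to LUL18) whose meaning is not stated, was taken to pair them and was a block in an alternative. DESeq2 (1.42.0), limma (3.58.1; pseudocount 0.5, or the logit of the heavy share), other scalings and left-out gradients were alternatives. Scripts were tested on simulated data with a set spread, for LPS+ET against LPS. Of changes of 1 and 2 on the log2 scale, 49% and 100% were recovered for the level (edgeR). For the ratio 5% and 78% were recovered, for limma on the heavy share 7.41% and 90.8%, and for the profile 8% and 98%.

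All 10 members, at most 4 genes a list (those called, or else the most abundant) and the 5 most alike genes were named. Members and lists were chosen with earlier results of these data known.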

Additional observations from a re-analysis of the deposited data

Results flagged for a closer look

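Of 60 groups of 4 gradients examined, 9 held a gradient far from the other 3 by Dixon's criterion at the 95% level, which chance flags in about 1 in 20 groups. In levels, the LPS+ET+KU gradient of pool LUL16 stood at 409.7 CPM of H2-DMa (others 139 to 184), 474 of H2-DMb2 (90.1 to 135) and 46.9 of Ciita (22.5 to 24.7), and the LPS+ET gradient of that pool at 169 CPM of H2-Ob (94.1 to 97.5). In the scaled heavy share, the LPS+ET gradient of pool LUL16 stood at 68.0% for H2-Ab1 (77.0 to 77.5), 57.8% for Cd74 (69.7 to 71.1) and 57.3% for H2-DMb2 (69.6 to 70.8). The LPS+ET gradient of pool LUL17 stood at 31.9% for H2-Oa (40 to 41.6), and the LPS+ET+KU gradient of that pool at 51.2% for H2-Aa (56.1 to 56.2).

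The etoposide effect on H2-Ab1 differed between heavy polysomes and monosomes by 1.02 on the log2 scale (edgeR's quasi-likelihood test of the interaction, adjusted p 0.00195).

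A library of fraction 17 of an LPS gradient, used in no comparison, held 26 counts of the members among 777, of H2-Eb1 (8), Cd74 (8), H2-Aa (5), H2-Ab1 (4) and Ciita (1).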

How the results depend on the processing

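Numbers of members called are given first as reported. With the replicate block, which pairs gradients by pool, level calls went from 1 to 5 in LPS+ET against LPS, 0 to 2 in LPS+ET+KU against LPS+ET and 1 to 2 in LPS+ET+KU against LPS. In the same order of comparisons they went from 1 to 5, 0 to 2 and 1 to 5 in monosomes, from 1 to 4 and 0 to 3 (1 in both for the last) in light polysomes, and from 1 to 4, 0 to 1 and 0 to 2 in heavy polysomes. Leaving out pool LUL16, chosen after seeing the data, gave 5 and 2 level calls against LPS, and with the block 7, 4 (H2-Ab1, H2-DMa, H2-Oa and H2-Ob) and 6 (H2-Ab1, H2-DMb1, H2-DMb2, H2-Oa, H2-Ob and Ciita). It gave 8 in place of 5 for heavy polysomes against monosomes in LPS+ET+KU (DESeq2 also 8), and 2 in place of 1 and 3 in place of 0 for the ratio in LPS+ET and LPS+ET+KU against LPS. Shares of all genes called without that pool are not given here, so these counts have no background beside them. Fitting only 8 gradients gave 2 in place of 1 in LPS+ET against LPS, and equal weight per fraction 0 in place of 1 in LPS+ET+KU against LPS. DESeq2 gave 1 in place of 0 for the level in LPS+ET+KU against LPS+ET, and for heavy polysomes in both LPS+ET+KU comparisons. Limma on the heavy share, scaled, as deposited or scaled with the block, gave 0 in place of 1 for the ratio in LPS+ET against LPS. The interaction alone gave 0, 0 and 1 profile calls in place of 6, 2 and 4, and a term per gradient 2 in LPS+ET against LPS. The cause of these changes was not tested.

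With single gradients left out, calls in LPS+ET against LPS, LPS+ET+KU against LPS+ET and LPS+ET+KU against LPS ranged from 1 to 1, 0 to 0 and 0 to 2 (level), 0 to 2, 0 to 0 and 0 to 1 (monosomes), 1 to 1, 0 to 0 and 0 to 1 (light polysomes), 0 to 1, 0 to 0 and 0 to 1 (heavy polysomes), 0 to 2, 0 to 0 and 0 to 1 (ratio) and 4 to 8, 1 to 5 and 1 to 7 (profile). Heavy polysome against monosome calls ranged from 5 to 5 in LPS, 4 to 5 in LPS+ET and 4 to 6 in LPS+ET+KU.

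Among values that were not called, signs turned with single gradients left out for levels of H2-Ab1 (-0.11 to 0.045) and Cd74 (-0.039 to 0.17) in LPS+ET against LPS, H2-DMb2 (-0.032 to 1.04) and Ciita (-0.10 to 0.47) in LPS+ET+KU against LPS+ET, and H2-DMa (-0.33 to 0.29) and H2-DMb1 (-0.73 to 0.024) in LPS+ET+KU against LPS. H2-DMa there was -0.19 without pool LUL16, with and without the block. For heavy polysomes against monosomes, H2-Aa in LPS was -0.012 and Ciita in LPS+ET -0.047 without pool LUL16. In LPS+ET, H2-Eb1 was 0.063 and H2-DMa 0.071 in the scaled heavy share, and with gradients left out H2-Eb1 ran from -0.053 to 0.0022 and Ciita from -0.028 to 0.47. DESeq2 moved the median of all genes to 0.12 in LPS+ET against LPS and 0.22 in LPS+ET+KU against LPS, from 0.03 and 0.09. Low counts limit H2-DMb1, H2-Oa and Ciita in single fractions.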
